A study of Mus musculus with 6 samples.

Results

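ATP-binding cassette (ABC) transporters move drugs, sterols, phospholipids, peptides and ions across membranes with energy from ATP. Genes of this family were selected by symbol, as all genes named Abca to Abcg followed by a digit. They made up 47 of the 18268 genes in the table of transcript levels. Colorectal tissue came from 6 male C57BL/6 mice, 8 to 10 weeks old, in which colitis was caused by dextran sulfate sodium (DSS), a sulfated sugar polymer toxic to the colonic epithelium. DSS was in the drinking water of every mouse for 7 days, and treatment by gavage lasted 6 days. In the BBR group 3 mice took berberine, an alkaloid of Coptis and related plants, and in the SASP group 3 mice took sulfasalazine, which gut bacteria split to release mesalazine. Colitis mice without a drug and healthy mice were not analysed here, so each difference is between the drug groups. The study names rectal samples for its BBR sequencing and colon samples for its SASP sequencing. Any difference of gut segment between the groups cannot be told apart from the drug.

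In the intestinal epithelium, ABC proteins of the apical membrane return absorbed compounds to the lumen, and those of the basolateral membrane export conjugates towards the blood. P-glycoprotein, encoded in mice by Abcb1a and Abcb1b, is the best known of these efflux pumps, and BBR is among its substrates. SASP is a substrate of the pump encoded by Abcg2. Other members export plant sterols and cholesterol, work in mitochondria and peroxisomes, regulate potassium channels or act on ribosomes without transporting anything.

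Levels were given as FPKM, fragments per kilobase of transcript scaled to library depth, which can be compared between genes as a level per transcript length. Of the 47 members, 26 reached 1 FPKM in all 6 mice, 2 in 5 mice, 3 in 1 or 2 mice and 16 in none. The 28 members at or above 1 FPKM in at least 3 mice were tested among 12072 genes with limma on log2(FPKM + 1). Of these, 6 differed at an adjusted p-value under 0.05, with 5 higher (Abcb1a, Abcg5, Abcg8, Abca8a and Abcb6) and 1 lower (Abce1) under BBR. This was 21.4% of the tested members, against 8.86% of all tested genes, or 3.82% higher and 5.04% lower. Over all genes 461 were higher and 608 lower, and with median-ratio scaling the split was 498 and 1186. The labels list 3 samples a group without stating that each came from its own mouse, although they are called mice here, so the p-values measure only the spread between samples, which may be technical. The median log2 fold change of the tested members was 0.18, with 21 positive and 7 negative values (15 and 13 with median-ratio scaling), against 0.10 for all tested genes, of which 60.8% were positive. In 11 of the 28 the BBR values lay apart from the SASP values, with BBR above in 7 and below in 4. Among all tested genes this held for 37.9%, with 21.3% above and 16.6% below.

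**Figure D1:**
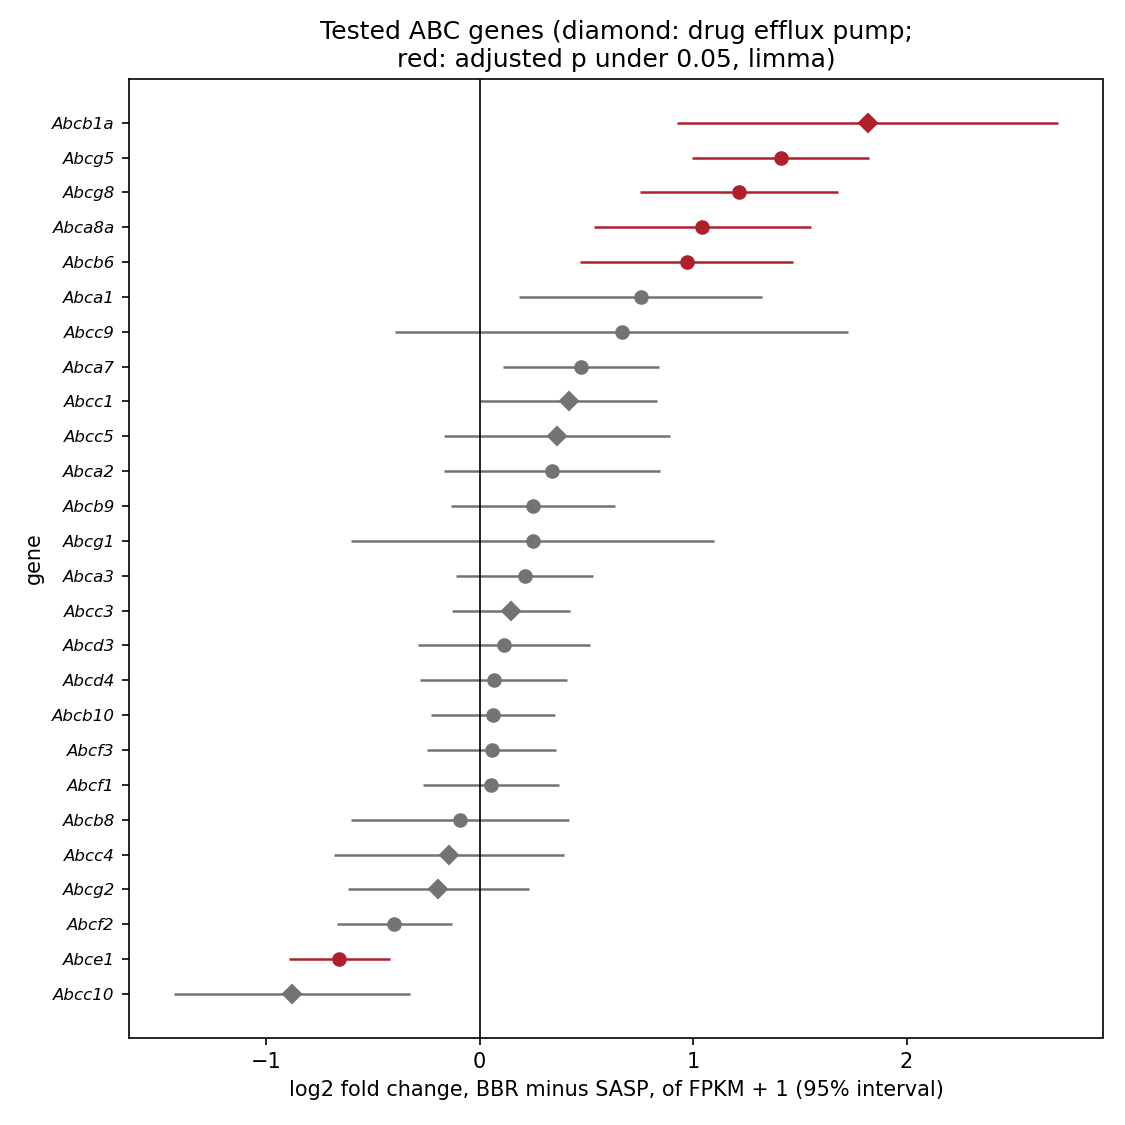
Log2 fold changes (BBR minus SASP, x axis, on the log2(FPKM + 1) scale) of 26 of the 28 tested ABC genes (y axis), with 95% intervals from limma, 3 mice per group. Diamonds are drug efflux pumps, and red marks the 6 genes with an adjusted p under 0.05. Abcb1a lies farthest right at 1.82 and Abcc10 farthest left at -0.88.

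Drug efflux pumps were set apart, and all 9 on the list were in the table. Abcb1a rose under BBR, and it was the 1 pump of 7 tested (14.3%, against 8.86% of all tested genes) that passed the threshold. The other tested pumps spread on both sides of 0, so that the median of the 7 was 0.15, with 4 positive and 3 negative values. Abcc2 and Abcb1b stayed under 1 FPKM in all mice and were not tested.

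Abcb1a (Gene ID 18671) was at 229, 141 and 223 FPKM in BBR mouse 1, 2 and 3 against 32.9, 93.7 and 50.9 FPKM in SASP mouse 1, 2 and 3. The lowest BBR value exceeded the highest SASP value, and the lowest of the 6 was SASP mouse 1. The means were 198 ± 49.4 and 59.2 ± 31.3 FPKM (SD, n = 3 each), a ratio of 3.34, and the log2 fold change was 1.82 (SE 0.38, adjusted p = 0.0361). Abcb1a had the highest mean of all 47 members. It made up 60.0%, 50.3% and 56.2% of the summed FPKM of the 9 pumps in the BBR mice, and 16.3%, 33.4% and 23.3% in the SASP mice. Abcb1a no longer passed without BBR mouse 1 or 2 (adjusted p = 0.0937 and 0.0570), without SASP mouse 1 or 3 (0.116 and 0.126) and with no filter on low genes (0.0622).

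Genes of other cell types also differed between the groups, and their part in the difference of Abcb1a was not tested. Summed FPKM of 8 smooth muscle genes was 2814, 2908 and 6671 in BBR and 716, 2244 and 1645 in SASP mice, so that the SASP mice kept the order they had for Abcb1a, while BBR mouse 1, highest in Abcb1a, was lowest of its group. All 8 had positive fold changes, but 0 of the 8 passed the threshold. With the mean log2 level of these genes as a covariate the log2 fold change of Abcb1a was 0.98 (adjusted p = 0.280). This level was 7.86, 7.98 and 9.04 in BBR and 5.98, 7.55 and 7.18 in SASP mice. The covariate thus separated the groups and cannot be told apart from the drug, and only 19 of all 12072 genes passed with it. Car1, a carbonic anhydrase gene of surface colonocytes, was at 1200, 1261 and 2345 FPKM with BBR against 71.8, 853 and 328 FPKM with SASP. Its log2 fold change of 2.48 missed the threshold (adjusted p = 0.0950 by limma). In bulk tissue, fewer cells of a type and less RNA per cell cannot be told apart. The other genes of the 8-gene epithelial list did not all follow Car1. Krt20, also of differentiated colonocytes, was at 285, 245 and 551 FPKM with BBR against 899, 623 and 796 FPKM with SASP (log2 fold change -1.18, adjusted p = 0.0613). In the fit of all 6 mice Vil1, of the brush border, fell (-0.55, adjusted p = 0.0327), Krt18 rose (0.75, adjusted p = 0.0163), and Epcam, Krt8, Cdh1 and Slc26a3 overlapped between groups. The sum of the list, of which Krt8 was a large part, was 5884 to 7838 in BBR and 5686 to 5868 in SASP mice. The 6 endothelial genes summed to 16.96 to 30.7 and 7.83 to 11.7 FPKM. The sum of 6 macrophage genes was lower with BBR, at 71.9 to 109 against 110 to 126 FPKM. However, 3 of 5 tested had positive fold changes. Lyz2 was a large part of this sum, at 78.4, 92.9 and 59.2 FPKM with BBR against 99.1, 102 and 113 FPKM with SASP. Its log2 fold change of -0.46 missed the threshold (adjusted p = 0.117 by limma). Mrc1 was higher in all BBR mice (0.42, adjusted p = 0.102 by limma), and Adgre1, Csf1r, Cd68 and Cd163 overlapped between groups. T cell genes summed to 3.66 to 5.51 and 2.91 to 5.26 FPKM.

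Abcb1b (Gene ID 18669), which encodes the other mouse P-glycoprotein, was at 0.39, 0.29 and 0.49 FPKM with BBR against 0.31, 0.30 and 0.31 FPKM with SASP. The groups overlapped. Per transcript length, Abcb1a was 455 to 588 times as high as Abcb1b in the BBR mice and 106 to 312 times as high in the SASP mice. Abcb1a, Abcb1b and Abcb4 follow each other on chromosome 5 in the RefSeq gene order, and Abcb4, a phosphatidylcholine transporter of bile canaliculi, was also low, at 0.42 to 0.71 FPKM. The coding transcripts share sequence, as 15.5% of the 50-base stretches of Abcb1a also occur in Abcb1b, and the methods give reads of 50 bases. The division of reads between them is therefore uncertain for that part of the transcript.

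The bases just before the transcription starts of both genes are shown because these neighbours differ so widely in level. They are from RefSeq (GRCm38.p6), on the plus strand, and end 1 base before the start. Capitals mark CCAAT or AGTTCA on either strand.
Abcb1a, chr5:8566841-8567090: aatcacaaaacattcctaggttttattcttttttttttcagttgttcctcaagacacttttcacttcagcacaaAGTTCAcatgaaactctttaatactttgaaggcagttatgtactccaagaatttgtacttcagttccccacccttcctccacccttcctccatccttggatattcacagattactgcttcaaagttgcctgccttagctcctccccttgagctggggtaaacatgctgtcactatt
Abcb1b, chr5:8797897-8798146: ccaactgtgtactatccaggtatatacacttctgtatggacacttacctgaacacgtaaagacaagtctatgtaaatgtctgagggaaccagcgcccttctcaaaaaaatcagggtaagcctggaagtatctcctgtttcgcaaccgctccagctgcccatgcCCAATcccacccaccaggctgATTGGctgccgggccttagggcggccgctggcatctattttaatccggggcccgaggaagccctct
The Abcb1b stretch held 2 matches to CCAAT and the Abcb1a stretch 0. The Abcb1a stretch held 1 match to AGTTCA and the Abcb1b stretch 0. No matches overlapped. In windows of 300 bases around 32851 mouse starts, 37.4% held CCAAT and 14.0% held AGTTCA, so such matches are common and only describe the sequence.

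Abcc10 (Gene ID 224814), which exports taxanes and other hydrophobic drugs, had the most negative fold change of the 28 tested members. It was at 22.6, 17.9 and 27.1 FPKM with BBR against 52.0, 30.0 and 46.5 FPKM with SASP. The highest BBR value stayed under the lowest SASP value, but the log2 fold change of -0.88 (SE 0.23) missed the threshold (adjusted p = 0.0610). A fit lacking BBR mouse 3 brought it past (-1.02, adjusted p = 0.0234), as did a fit lacking SASP mouse 2 (-1.11, adjusted p = 0.0449). Exons of Abcc10 overlap those of Dlk2 on the opposite strand by 51 bases. Opposite-strand overlaps also existed for Abcb1a, with 553 bases of the predicted gene Gm42686, and between Abcg5 and Abcg8, with 82 bases. Whether counting used the strand is not given in the sources used here.

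Abcc3 and Abcg2 were the next most abundant pumps. Abcc3, which exports glucuronides and bile salts across the basolateral membrane, was at 64.9, 60.7 and 66.4 FPKM with BBR against 53.0, 66.5 and 54.5 FPKM with SASP (log2 fold change 0.15, 95% interval -0.13 to 0.42, adjusted p = 0.410). Abcg2, an apical pump for urate and many drugs, was at 52.1, 44.5 and 63.7 FPKM with BBR against 54.1, 74.7 and 54.8 FPKM with SASP. Its log2 fold change was -0.19, with a 95% interval of -0.61 to 0.23 (adjusted p = 0.480). The groups overlapped in both genes, and the intervals hold changes of both signs. In the BBR mice Abcb1a was 3.16 to 4.40 times as high as Abcg2, and in the SASP mice 0.607 to 1.26 times as high.

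The remaining pumps were less abundant. Abcc1, which exports glutathione conjugates, was at 7.80 ± 0.752 FPKM with BBR against 5.67 ± 1.38 FPKM with SASP (SD, n = 3 each; log2 fold change 0.42, adjusted p = 0.154). Abcc4 and Abcc5, exporters of cyclic nucleotides, ranged over 2.99 to 5.81 and 1.04 to 2.88 FPKM in the 6 mice, with log2 fold changes of -0.14 and 0.36 (adjusted p = 0.692 and 0.296). Abcc2, an apical exporter of conjugates, was at 0.47, 0.56 and 0.83 FPKM with BBR against 0.11, 0.47 and 0.22 FPKM with SASP. The highest SASP value of Abcc2 equalled its lowest BBR value.

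**Figure D2:**
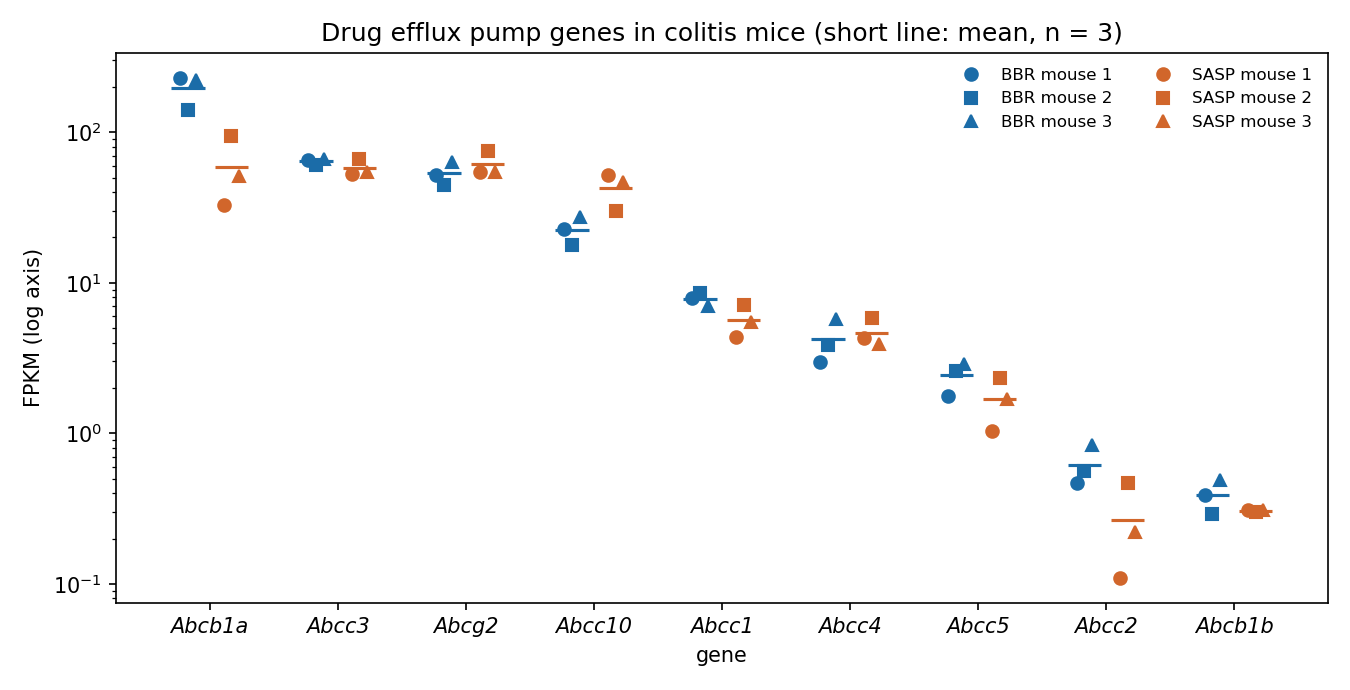
FPKM (log axis) of the 9 drug efflux pump genes in each of the 3 BBR and 3 SASP mice, with the group mean as a short line, ordered by mean level. The Abcb1a values of the BBR mice (141 to 229) lie above those of the SASP mice (32.9 to 93.7), the Abcc10 values lie the other way, and the other pumps overlap or touch.

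Of 20 listed sterol and phospholipid transporters 18 were in the table and 8 were tested. All 8 had positive fold changes, with a median of 0.62, and 3 of them (37.5%) rose under BBR, Abcg5, Abcg8 and Abca8a. Among all tested genes 60.8% were positive, the median was 0.10 and 3.82% were called higher. The fold changes of the 8 were also positive with quantile normalization and median-ratio scaling, and without BBR mouse 2 that of Abcg1 turned negative. The list counts describe genes chosen with earlier results of these data known.

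Abcg5 and Abcg8 encode the partners of a heterodimer that returns plant sterols and cholesterol to the gut lumen. Abcg5 (Gene ID 27409) was at 34.1, 23.9 and 26.2 FPKM with BBR against 11.98, 8.82 and 8.92 FPKM with SASP. Abcg8 (Gene ID 67470) was at 10.1, 7.31 and 7.03 FPKM with BBR against 3.83, 2.53 and 2.47 FPKM with SASP. In both genes the groups lay apart, with BBR mouse 1 and SASP mouse 1 highest in their groups.

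The Abcg5 means were 28.1 ± 5.33 and 9.91 ± 1.80 FPKM (SD, n = 3 each), a ratio of 2.83, with a log2 fold change of 1.41 (SE 0.17, adjusted p = 0.00985). Those of Abcg8 were 8.15 ± 1.70 and 2.94 ± 0.768 FPKM, a ratio of 2.77, with a log2 fold change of 1.22 (SE 0.20, adjusted p = 0.0193). The ratio of Abcg5 to Abcg8 stayed within 3.13 to 3.73 in the 6 mice. The call of Abcg5 was lost without SASP mouse 3 (adjusted p = 0.0640) and with the smooth muscle covariate (0.0666), where its fold change was 1.72. That of Abcg8 was lost without BBR mouse 1 (0.0685), without SASP mouse 1, 2 or 3 (0.0545, 0.0584 and 0.0953) and with the covariate (0.0792), where its fold change was 1.62.

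The pair lies head to head on chromosome 17, and RefSeq (GRCm38.p6) places the starts with 109 bases between them, Abcg5 to the left on the minus strand and Abcg8 to the right on the plus strand. This stretch is shown because both genes rose together. It is given on the plus strand, and capitals mark GATAA, the core bound by GATA factors, which appears here in the other orientation.
Between Abcg5 and Abcg8, chr17:84683012-84683120: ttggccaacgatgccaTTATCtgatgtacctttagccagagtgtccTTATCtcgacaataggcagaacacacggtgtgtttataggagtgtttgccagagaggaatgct
The stretch held 2 matches. The window of 300 bases around the Abcg8 start that contains it held 3, as did the window of Abcg5, and both windows overlap. Of all 32851 windows 25.4% held at least 1 match and 0.938% at least 3. Of the 42 windows of ABC members 21.4% held at least 1. The matches only describe the sequence.

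Abca8a (Gene ID 217258), a little studied lipid transporter, was at 2.30, 3.85 and 2.65 FPKM with BBR against 0.49, 1.16 and 1.07 FPKM with SASP. The groups lay apart, and the log2 fold change was 1.04 (SE 0.22, adjusted p = 0.0354). It lost its call without any 1 mouse other than BBR mouse 3, with adjusted p-values of 0.0711, 0.0881, 0.126, 0.0675 and 0.112 without BBR mouse 1 and 2 and SASP mouse 1, 2 and 3. It also lost it with no filter (0.0596) and with the covariate (0.271), where its fold change was 0.78. Abca8b, Abca8a, Abca9, Abca6 and Abca5 follow each other on chromosome 11. The other 4 were below the filter, and the group means of each were higher in BBR than in SASP mice, at 1.01 and 0.473 FPKM for Abca8b, 0.557 and 0.257 for Abca9, 0.217 and 0.0733 for Abca6 and 0.907 and 0.680 for Abca5. In Abca9 the groups lay apart, and in the other 3 they overlapped. Fibroblast genes were also higher with BBR, as 6 of them summed to 226 to 308 FPKM against 102 to 179 FPKM with SASP. Sums of the smooth muscle and endothelial genes were higher with BBR too. The part of any of these lists in the result was not tested.

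Of the other lipid transporters, Abca1, which loads cholesterol onto lipoproteins, was at 2.21, 4.06 and 1.66 FPKM with BBR against 1.17, 1.00 and 1.07 FPKM with SASP (log2 fold change 0.76, adjusted p = 0.0875). Abca7, a phospholipid transporter, was at 12.03 ± 2.0 and 8.32 ± 0.964 FPKM (SD, n = 3 each; log2 fold change 0.48, adjusted p = 0.0909). In both genes the groups lay apart. Abca7 passed the threshold without BBR mouse 3 (0.61, adjusted p = 0.0129) and with quantile normalization (0.42, adjusted p = 0.0466). Abca3, which packs surfactant phospholipids in the lung, was at 18.8 to 22.3 FPKM with BBR against 15.4 to 20.4 FPKM with SASP (0.21, adjusted p = 0.312). Abca2 ranged over 0.85 to 2.53 FPKM and Abcg1, a cholesterol exporter of macrophages, over 1.39 to 5.23 FPKM, both with overlapping groups (0.34 and 0.25, adjusted p = 0.307 and 0.654).

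**Figure D3:**
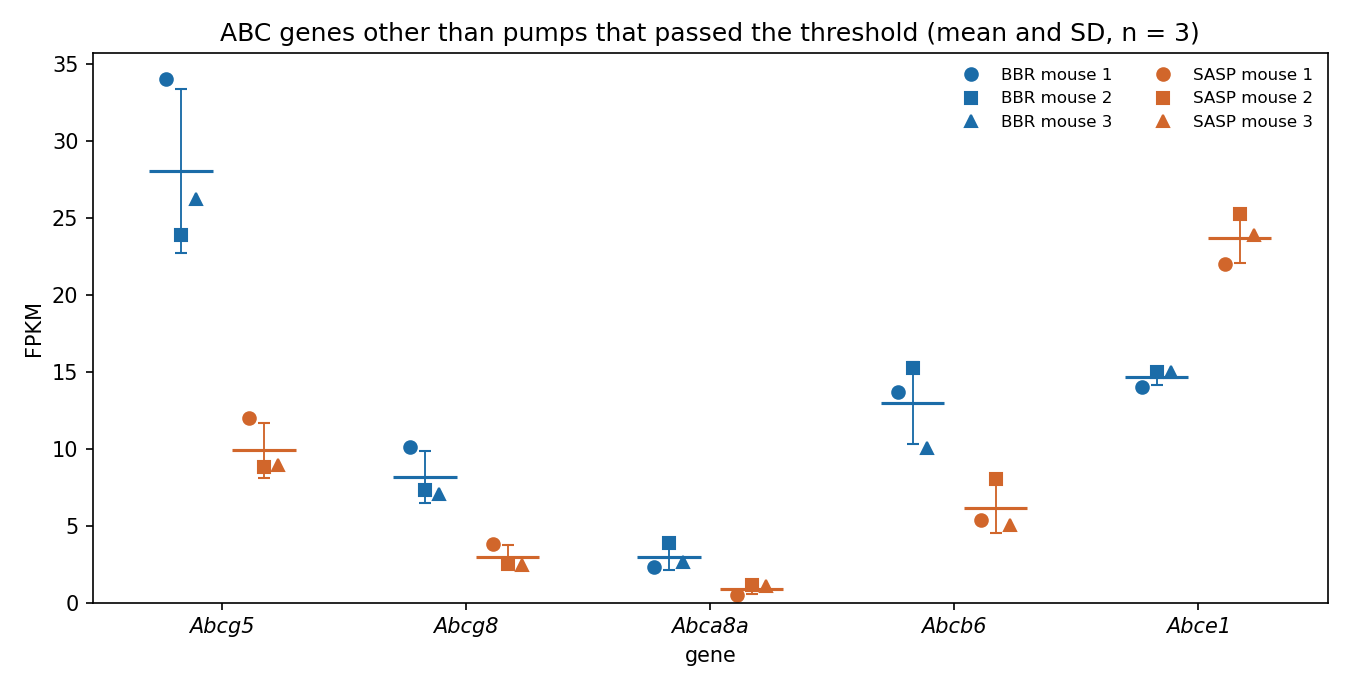
FPKM of the 5 ABC genes other than pumps that passed the threshold, in each of the 3 BBR and 3 SASP mice, with mean and SD. Abcg5, Abcg8, Abca8a and Abcb6 are higher in all BBR mice, and Abce1 is lower at 14.03 to 14.99 against 22.0 to 25.2.

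Among 5 transporters of mitochondria and lysosomes, all tested, Abcb6 rose under BBR. Abcb6 (Gene ID 74104), a porphyrin transporter, was at 13.7, 15.2 and 10.03 FPKM with BBR against 5.38, 8.03 and 5.05 FPKM with SASP. The groups lay apart, with a ratio of means of 2.11 and a log2 fold change of 0.97 (SE 0.21, adjusted p = 0.0394). An annotated transcript of the same strand, Gm29253, holds 90.3% of the 50-base stretches of Abcb6, so its reads cannot be assigned to Abcb6 alone. Abcb6 no longer passed without BBR mouse 1 or 2 (adjusted p = 0.102 and 0.106), without SASP mouse 1 or 3 (0.157 and 0.143), with no filter (0.0657) and with the covariate (0.223), where its fold change was 1.00.

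Abcb8 and Abcb10, both of the inner mitochondrial membrane, and Abcb9, a peptide transporter of lysosomes, had log2 fold changes of -0.09, 0.06 and 0.25 (adjusted p = 0.791, 0.743 and 0.316).

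Ribosome-associated ABC proteins bind nucleotides like the transporters but span no membrane. Abce1 (Gene ID 24015), which splits ribosomes after translation ends, fell under BBR. It was at 14.03, 14.97 and 14.99 FPKM with BBR against 22.0, 25.2 and 23.9 FPKM with SASP, with the groups apart and little spread within each. The means were 14.7 ± 0.549 and 23.7 ± 1.64 FPKM (SD, n = 3 each), and the log2 fold change was -0.66 (SE 0.10, adjusted p = 0.0180). It no longer passed without BBR mouse 1 (0.0696), without SASP mouse 1, 2 or 3 (0.0725, 0.0532 and 0.0989) and with the covariate (0.128), where its fold change was -0.78.

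Abcf2 was at 11.9, 12.4 and 13.1 FPKM with BBR against 14.97, 18.4 and 16.96 FPKM with SASP, again with the groups apart (log2 fold change -0.40, adjusted p = 0.0705). It passed without BBR mouse 3 (-0.43, adjusted p = 0.0284) and with median-ratio scaling (-0.52, adjusted p = 0.0320). Abcf1, which acts in translation initiation, and Abcf3 overlapped between groups, at 25.1 to 32.8 and 10.7 to 13.4 FPKM over the 6 mice. Their log2 fold changes of 0.05 and 0.06 (adjusted p = 0.805 and 0.778) turned negative with median-ratio scaling, and that of Abcf3 also with quantile normalization.

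The ABCD members, which import fatty acids into peroxisomes or, in the case of Abcd4, move cobalamin out of lysosomes, overlapped between groups, and 0 of 3 tested by limma had an unadjusted p under 0.05. Abcd3 was the most abundant, at 56.4, 43.0 and 65.6 FPKM with BBR against 44.2, 55.4 and 50.8 FPKM with SASP (log2 fold change 0.12, 95% interval -0.29 to 0.52, adjusted p = 0.661). Abcd4 was at 5.14 to 7.3 FPKM with BBR against 5.92 to 6.12 FPKM with SASP, with a log2 fold change of 0.07 (adjusted p = 0.776). Both fold changes turned negative with median-ratio scaling, so no direction is given. Abcd2 was at 0.09 to 0.80 FPKM.

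Abcc9, the sulfonylurea receptor of muscle and vessel potassium channels, was at 3.51, 8.60 and 11.2 FPKM with BBR against 2.01, 5.92 and 5.35 FPKM with SASP. The groups overlapped, and the spread within each was wide (log2 fold change 0.67, 95% interval -0.40 to 1.73, adjusted p = 0.335). Kcnj8, which encodes the pore of the same channel, was at 3.91, 5.18 and 9.94 FPKM with BBR against 1.76, 4.40 and 3.66 FPKM with SASP (0.75, adjusted p = 0.196). For both genes BBR mouse 3 was highest and SASP mouse 1 lowest, as for the sum of smooth muscle genes. With the smooth muscle covariate both fold changes turned negative, at -0.48 and -0.26. Abcc8, the receptor of endocrine cells, was at 0.18 to 0.45 FPKM, and its pore gene Kcnj11 was at 0.07 to 0.23 FPKM.

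The 16 members under 1 FPKM in all mice were Abcg3, Abcb4, Abcg4, Abcc2, Abca9, Abcb1b, Abcc8, Abcd2, Abca14, Abca13, Abca6, Abca15, Abca17, Abcb11, Abca4 and Abcc12. In Abca9 all BBR values lay above and in Abca13 below all SASP values, and in the other 14 the groups overlapped or touched. Just under the limit, Abcg4 reached at most 0.89 FPKM and Abcc2 0.83 FPKM. Just over it, Abca8b reached 1.15 FPKM and Abca5 1.34 FPKM, and with Abcc6 (0.63 to 1.63 FPKM) they formed the 3 members that were above 1 FPKM in too few mice for the test. Abcb11, the bile salt pump of hepatocytes, Abca4 and Abcc12 were listed at 0 in 1 or more mice and reached at most 0.06, 0.02 and 0.02 FPKM. By an approximate depth of 16400000 to 18200000 reads per mouse, 1 FPKM stood for 39.5 to 269 reads, depending on transcript length, so values of a few hundredths rest on few reads.

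Genes that work with ABC transporters were read from the same fit, in lists fixed with earlier results known. Of the 75 listed genes 61 were tested and 9 passed the threshold (14.8%, against 8.86% of all tested genes), 5 higher and 4 lower. The ABC family also has members with other symbols. Tap1 and Tap2, which carry peptides to MHC class I, fell under BBR, by 3.73 and 1.49 on the log2 scale (adjusted p = 0.000468 and 0.0175). Tap2 no longer passed once BBR mouse 1 or 2 or SASP mouse 1 or 3 was left out (0.0641, 0.0501, 0.0868 and 0.0735). Cftr, a chloride channel of the same family, was at 17.5, 12.2 and 6.35 FPKM with BBR against 6.49, 8.17 and 6.13 FPKM with SASP (0.62, adjusted p = 0.225).

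Xenobiotic receptors, which regulate efflux pumps and drug-metabolising enzymes, gave 0 of 11 genes past the threshold in limma, 1 with an unadjusted p under 0.05, and a median of 0.24. Among all tested genes 8.86% passed the threshold and the median was 0.10. Nfe2l2, the regulator of the antioxidant response, had the smallest p, at 71.1, 77.5 and 50.03 FPKM with BBR against 40.7, 47.1 and 41.8 FPKM with SASP (log2 fold change 0.58, unadjusted p = 0.0116 by limma, adjusted p = 0.0746). It passed without BBR mouse 3 (0.77, adjusted p = 0.00409) and with quantile normalization (0.61, adjusted p = 0.0461). Nr1i2, the pregnane X receptor, was at 63.1, 59.3 and 37.3 FPKM with BBR against 40.0, 37.2 and 40.6 FPKM with SASP (0.39, adjusted p = 0.214).

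Of 23 tested drug-metabolising enzymes 4 rose (Cyp2c55, Cyp2c65, Gstt1 and Por) and 1 fell (Ces2e). Together these were 21.7% of the list, against 8.86% of all tested genes. Cyp2c55 was at 917, 416 and 772 FPKM with BBR against 4.01, 102 and 28.4 FPKM with SASP, with BBR mouse 2 and SASP mouse 2 nearest to the other group, as for Abcb1a (log2 fold change 4.75, adjusted p = 0.0366). Leaving out BBR mouse 1 or 2 or SASP mouse 1 or 3 ended its call (0.0937, 0.0774, 0.0664 and 0.118), and without SASP mouse 1 the log2 fold change was 3.60. No filter ended it too (0.0634), as did the smooth muscle covariate, with a log2 fold change of 2.42 (0.279). Cyp2c65 rose by 1.77 (adjusted p = 0.0132), at 3.95 to 8.5 against 0.82 to 1.12 FPKM. Ces2e, a carboxylesterase gene, went the other way, at 76.9 to 119 FPKM with BBR against 232 to 245 FPKM with SASP (-1.34, adjusted p = 0.00981). Cyp2c65 and Ces2e lost their calls without BBR mouse 1 (0.0543 and 0.0513), SASP mouse 1 (0.0654 and 0.0588) or SASP mouse 3 (0.0756 and 0.0626). The covariate ended both calls too (0.1685 and 0.0929), with log2 fold changes of 1.51 and -1.53.

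In the list of drug and bile acid carriers 1 of 9 tested genes passed (11.1%, against 8.86% of all tested genes). Slc51b, which encodes a subunit of the basolateral bile acid exporter, was at 8.58, 6.73 and 24.6 FPKM with BBR against 145, 48.7 and 71.9 FPKM with SASP (log2 fold change -2.71, adjusted p = 0.0324). Its call was lost without any 1 mouse other than BBR mouse 3, with adjusted p-values of 0.0506 to 0.118. No filter ended it too (0.05725), as did the smooth muscle covariate, with a log2 fold change of -2.635 (0.211). Among 14 tested sterol genes 1 passed the threshold (7.14%, against 8.86% of all tested genes), Soat1, which esterifies cholesterol for storage. It was at 25.7, 19.4 and 26.6 FPKM with BBR against 11.6, 14.9 and 12.1 FPKM with SASP (0.84, adjusted p = 0.0272). Leaving out BBR mouse 1 or SASP mouse 1 or 3 ended this call (0.0883, 0.125 and 0.118). So did the covariate, with a log2 fold change of 0.60 (0.242). Nr1h3, a liver X receptor that regulates Abca1, Abcg5 and Abcg8, had a log2 fold change of -0.63 (adjusted p = 0.0750 by limma). Nr1h2, the other liver X receptor of the list, was at 43.2, 44.8 and 35.2 FPKM with BBR against 36.2, 37.4 and 41.9 FPKM with SASP. The groups of Nr1h2 overlapped (0.09, adjusted p = 0.649 by limma). Neither receptor gene passed the threshold, and their part in the levels of Abca1, Abcg5 and Abcg8 was not tested. Both receptor genes were chosen after their values were seen.

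**Figure D4:**
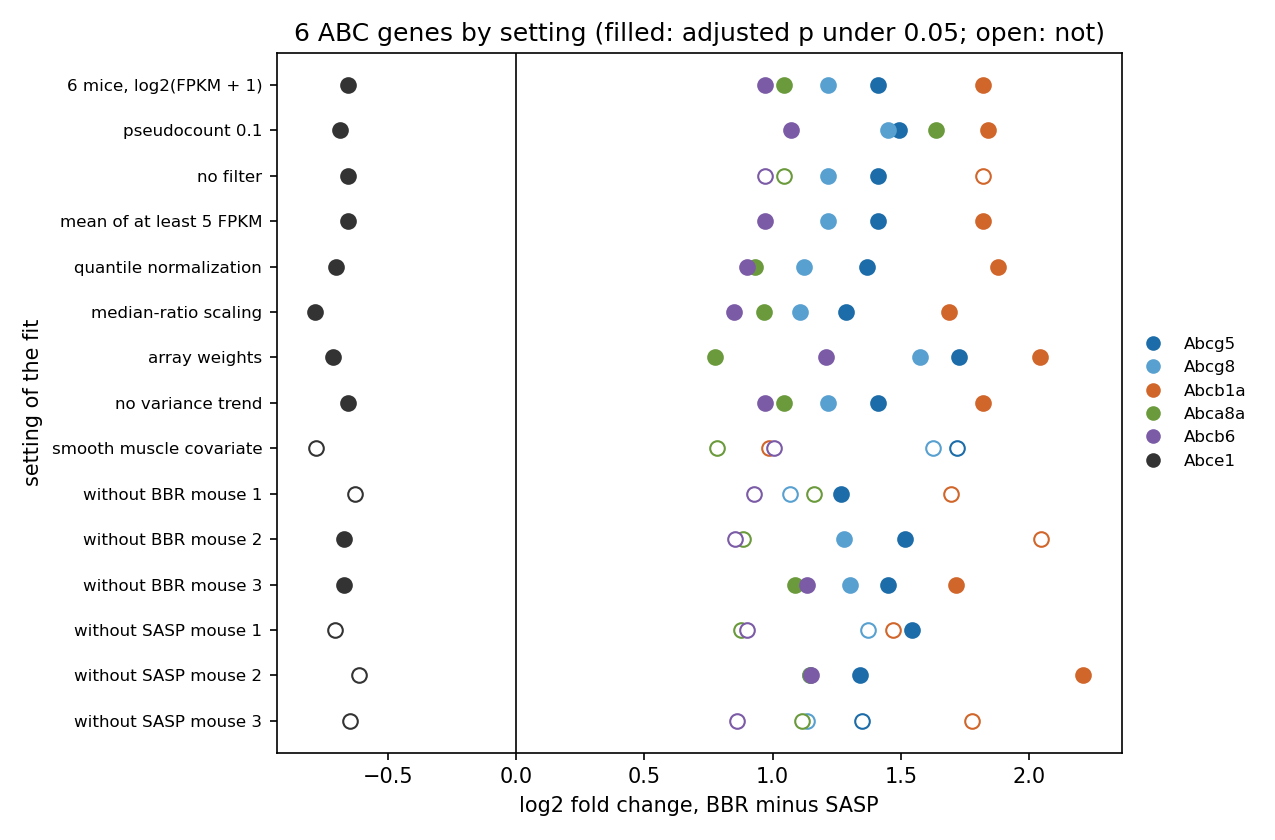
Log2 fold change (x axis, BBR minus SASP) of the 6 ABC genes past the threshold, in each setting of the fit (y axis). Filled points have an adjusted p under 0.05. Each gene keeps its sign in every setting, but no point is filled without SASP mouse 3 or with the smooth muscle covariate, and Abca8a is not tested at a mean of at least 5 FPKM.

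The 6 genes kept their direction in all settings in which they were tested, while the number of members past the threshold depended on single mice. It was 11 without BBR mouse 3, 4 without SASP mouse 2, 3 without BBR mouse 2, 1 without BBR mouse 1 or SASP mouse 1, where the gene left was Abcg5, and 0 without SASP mouse 3, where limma gave 10 members an unadjusted p under 0.05. Over all genes the number moved in the same way, from 51 without SASP mouse 3 to 4018 without BBR mouse 3. Array weights, which are low for libraries far from their group, ran from 0.129 for BBR mouse 3 to 5.32 for BBR mouse 1. BBR mouse 3 stood apart in Vdr, the vitamin D receptor gene, at 57.1 FPKM against 174 and 168 FPKM in BBR mouse 1 and 2. Each library had 11518 to 12307 genes at or above 1 FPKM, and epithelial genes were abundant throughout, with Epcam at 833 to 1101 FPKM.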

How the data were processed

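RNA of colorectal tissue was sequenced for 3 BBR and 3 SASP mice, grouped by the treatment label, and mice within a group were numbered in accession order. The methods give BBR at 100 mg/kg, SASP at 200 mg/kg and 2.5% DSS, so the drug doses differed. The deposited FPKM values were made by the authors, who aligned reads with Bowtie2 2.2.5 and used RSEM 1.2.12. The methods give reads of 50 bases filtered with SOAPnuke 1.5.2, in a section that does not name the SASP samples. The submitters' notes name mm9, and the annotation is not given in the sources used here. The labels name a different library kit than the methods. Promoter sequences carry GRCm38.p6 coordinates of the RefSeq table, which held windows for 35 of the 47 members, and no coordinate was converted.

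FPKM are not counts, so log2(FPKM + 1) was compared in limma 3.58.1 (R 4.3.3), with a mean-variance trend, two-sided tests and Benjamini-Hochberg adjustment over all 12072 genes with at least 1 FPKM in at least 3 of 6 mice. This scale understates changes of low genes. An exact permutation test of 3 against 3 cannot go below 0.10. Members and lists were chosen with earlier results of these data known. Named were all members past the threshold, all pumps, the 4 most abundant members of each other role, up to 3 genes per partner list and the members nearest 1 FPKM, and other genes were added after their values were seen. Some items that this rule names are not reported here. The fit was tested on simulated data. Depth was approximated from genes above 0 in 1 mouse only with transcripts under 1500 bases, taken as 1 read each. Shared 50-base stretches, on the same strand, and exon overlaps came from GENCODE M21. The alternatives were another pseudocount, filter, scaling, weighting, variance model or covariate and leaving out each mouse.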

Additional observations from a re-analysis of the deposited data

How the results depend on the processing

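The 6 ABC genes past the threshold became 3 with no filter and 15 with array weights. Their number ranged over 0 to 11 with 1 mouse fewer. With the smooth muscle covariate, which also costs a degree of freedom, 0 passed (9 at an unadjusted p under 0.05 in limma). Over all genes the 1069 calls of 12072 became 608 of 18260 with no filter and 19 of 12072 with the covariate. The 1 pump past the threshold became 0 with no filter (3 at an unadjusted p under 0.05 in limma), 4 with array weights, 0 with the covariate (1 at an unadjusted p under 0.05) and 0 to 2 without single mice. The 9 partner genes became 5 with no filter, 14 with quantile normalization, 47 with array weights, 1 with the covariate and 1 to 34 without single mice. Array weights gave most weight to BBR mouse 1 and SASP mouse 3 and least to BBR mouse 3. They called 7126 of all genes, of which 4636 were higher, against 461 of 1069. Median-ratio scaling shifted the median of all tested genes by -0.12 and called 498 of 1684 genes higher. With it the median of the ABC genes was 0.049, and with the covariate that of the pumps was -0.15. No paired analysis was possible because the replicate numbers follow accession order and pair no mice.

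With median-ratio scaling the direction turned for Abcb10 (-0.058), Abcd3 (-0.016), Abcd4 (-0.051), Abcf1 (-0.076) and Abcf3 (-0.067), and with quantile normalization for Abcd4 (-0.029) and Abcf3 (-0.0029). Array weights turned Abcb8 (0.16) and Abcc9 (-0.25). The covariate turned Abcb8 (0.16), Abcc3 (-0.027), Abcc5 (-0.15), Abcc9 (-0.48), Abcd3 (-0.23) and Kcnj8 (-0.26). Leaving out single mice gave ranges across 0 for Abcb8 (-0.23 to 0.15), Abcb10 (-0.0084 to 0.12), Abcc4 (-0.35 to 0.034), Abcd3 (-0.019 to 0.28), Abcd4 (-0.023 to 0.19) and Abcf1 (-0.032 to 0.16). Of 429 refits of 31 named genes, 331 kept side and sign, 61 lost the call, 15 gained it and 22 turned. The cause was not tested.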

Other observations

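The bile acid exporter of the basolateral membrane is built from the products of Slc51a and Slc51b. While Slc51b was at 6.73 to 145 FPKM over the 6 mice, Slc51a was at 0 to 0.07 FPKM, and it was listed at 0 in BBR mouse 2 and SASP mouse 3. Abcc3, which exports bile salts across the same membrane, was at 53.0 to 66.5 FPKM. Also higher under BBR, and described here after their values were seen, were the drug metabolism genes Por, the electron donor of cytochrome P450 enzymes (48.6 ± 4.39 and 25.8 ± 8.08 FPKM, SD, n = 3 each, adjusted p = 0.0445 by limma), and Gstt1, a glutathione transferase gene (36.4 ± 1.22 and 20.6 ± 4.74 FPKM, adjusted p = 0.0373). Por no longer passed in fits lacking BBR mouse 1, BBR mouse 2, SASP mouse 1 or SASP mouse 3 (adjusted p = 0.110, 0.0905, 0.141 and 0.149), with median-ratio scaling (0.0506), without the variance trend (0.0508), with no filter (0.0724) or with the smooth muscle covariate (log2 fold change 0.48, adjusted p = 0.347). Gstt1 no longer passed with no filter (0.0591), with the covariate (0.45, adjusted p = 0.298) or without any 1 mouse other than BBR mouse 3 (0.0506 to 0.110). Cyp1a1, Cyp1b1, Cyp2b10 and Cyp3a25 stayed under 1 FPKM in all mice.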
